A study of Mus musculus with 8 samples.

Results

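Ribosome biogenesis factors are the proteins that transcribe, cut, modify and fold ribosomal RNA (rRNA) and load it with ribosomal proteins. RNA of 44 such genes, among them Nom1, was compared between haematopoietic stem cells of Kdm4a/b/c triple knockout (KO) mice and of wild-type (WT) control mice. The 44 genes were chosen by symbol for their roles in pre-rRNA processing, small nucleolar ribonucleoproteins (snoRNPs) and ribosome assembly, leaving out polymerase I initiation factors and ribosomal proteins. They are 44 of the 24222 gene symbols counted. All 44 were found under their own symbols and passed the filter on low counts, with 11 or more reads in every library.

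The KO group held 4 mice in which deletion of Kdm4a, Kdm4b and Kdm4c was induced, and the WT group 4 control mice. The study's design text gives the same time of 2 weeks after induction for the sort of both groups. All were of the C57BL6 strain, and each mouse gave 1 RNA-seq library from stem cells sorted out of bone marrow. The sources used here do not give the allele design, the Cre driver, the inducing agent, whether WT mice received it, or the sort markers, age and sex of the mice. The comparison asks how loss of the 3 enzymes, demethylases of histone H3, shows in the RNA of stem cells.

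Ribosomes are built in the nucleolus, where RNA polymerase I makes a long precursor that is trimmed into the mature rRNAs. The small subunit processome, a large assembly around the U3 snoRNP, folds and cuts the part that becomes the small subunit, while other factors mature the large subunit. Box C/D snoRNPs guide ribose methylation and box H/ACA snoRNPs guide pseudouridylation. Haematopoietic stem cells are known for a low rate of protein synthesis and are sensitive to changes in it.

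Total counts were between 5541504 and 14872493 in KO libraries and between 3594315 and 6044289 in WT libraries, the deepest being that of KO mouse 3. The targeted genes checked the labels. Kdm4c was at 36.0 ± 10.6 CPM in KO and 115 ± 22.7 CPM in WT (SD, n = 4 each; CPM is the read count scaled to a common library total). Kdm4a was at 20.3 ± 3.86 CPM in KO and 36.3 ± 9.56 CPM in WT, and Kdm4b at 3.73 ± 1.79 CPM in KO and 10.2 ± 2.44 CPM in WT. KO and WT libraries did not overlap for any of these 3 genes, and 1 of the 3, Kdm4c, passed the edgeR test over all genes described below. The edgeR adjusted p of Kdm4a was 0.132 and that of Kdm4b 0.142. All 15 stem cell markers on a list of such genes were counted in every library, and summed to between 4438 and 4959.8 CPM in KO and between 5249.7 and 5678 CPM in WT. Summed erythroid markers were between 1232 and 1433 CPM in KO and between 2178 and 2411.5 CPM in WT. All 4 haemoglobin symbols of the list were at 0 throughout. The annotation of the counting is not given, so absent RNA and reads left out of the counting cannot be told apart there. Megakaryocyte and platelet markers summed to between 567 and 773 CPM in KO and between 316 and 518 CPM in WT. Other marrow markers were lower, at no more than 230.3 CPM in KO and 138 CPM in WT for 12 neutrophil and monocyte genes. For 10 macrophage and dendritic cell genes the sums were 71.6 to 98.2 CPM in KO and 38.6 to 74.5 CPM in WT, for 7 stromal and endothelial genes 38.8 to 70.5 CPM in KO and 40.0 to 73.6 CPM in WT, and for 9 B, T and NK cell genes 23.7 to 34.9 CPM in KO and 10.9 to 33.5 CPM in WT. Mast cell and basophil markers stayed under 10 CPM in every library. Siglech, Cd3g and Prss34, markers of plasmacytoid dendritic cells, T cells and basophils, were at 0. In the same lists, 4 macrophage and dendritic cell genes, 3 B, T and NK cell genes and 1 mast cell and basophil gene were counted in every library. Several of these sums differed between the groups, and their part in the results below was not tested. A sum can hide genes that moved in opposite directions. Of the 15 stem cell markers, 12 had a log2 fold change below 0, KO over WT, and 3 above. Of 4 macrophage and dendritic cell genes tested, 1 passed edgeR higher and 1 lower, against 0.252% and 0.33% of all genes. Their log2 fold changes ran from -2.84 to 1.57. In bulk RNA, fewer cells of a type and less RNA per cell cannot be told apart.

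Nom1 was lower in KO and was the 1 member of 44 to pass the test over all genes. Among the members 0 were higher and 1 was lower at a Benjamini-Hochberg adjusted p under 0.05 in edgeR's quasi-likelihood test, while 0.252% of the 11498 genes tested were higher and 0.33% lower (0.583% in either direction). Without adjustment, 5 members were higher (11.4%) and 2 lower (4.55%) at that threshold, against 5.76% and 5.44% of all genes. DESeq2 called 3 members higher and 1 lower, against 0.679% and 0.661% of all genes, and limma voom 1 higher and 0 lower, against 0.339% and 0.304%. The median log2 fold change of the members, KO over WT, was 0.11, and that of all genes tested was 0.00. Without WT mouse 3 the members' median was 0.06. Of the 44 members, 29 had a log2 fold change above 0, or 65.9%, against 50.2% of all genes. These counts describe a list whose earlier results were known when it was drawn up.

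Nom1 encodes a nucleolar protein with MIF4G and MA3 domains, and its yeast counterpart is needed to make the small subunit rRNA. The gene lies on chromosome 5 from 29434664 to 29457843, plus strand, in the mm10 build. Its promoter window, 250 bases before to 50 after the RefSeq start (GRCm38.p6, chr5:29434417-29434716, plus strand), is shown because Nom1 is the member that passed, beside those of Heatr1 (chr13:12395125-12395424, plus strand) and Gnl3 (chr14:31019082-31019381, minus strand), members that were above WT in all KO libraries. Each is written 5′ to 3′ on the gene's strand, and capitals mark CCGGAA, the core that ETS factors bind, or its reverse complement TTCCGG.
Nom1: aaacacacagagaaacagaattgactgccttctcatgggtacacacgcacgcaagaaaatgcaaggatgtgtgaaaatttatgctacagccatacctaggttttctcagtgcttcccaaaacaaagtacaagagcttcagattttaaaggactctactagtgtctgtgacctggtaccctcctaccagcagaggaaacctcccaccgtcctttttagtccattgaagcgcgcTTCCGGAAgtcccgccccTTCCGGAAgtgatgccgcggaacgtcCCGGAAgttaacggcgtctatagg
Heatr1: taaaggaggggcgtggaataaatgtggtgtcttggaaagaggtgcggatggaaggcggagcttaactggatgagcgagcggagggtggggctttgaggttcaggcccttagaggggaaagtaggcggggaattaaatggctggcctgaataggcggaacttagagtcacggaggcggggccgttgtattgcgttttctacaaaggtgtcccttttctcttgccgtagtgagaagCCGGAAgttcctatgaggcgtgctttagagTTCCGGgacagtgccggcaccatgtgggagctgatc
Gnl3: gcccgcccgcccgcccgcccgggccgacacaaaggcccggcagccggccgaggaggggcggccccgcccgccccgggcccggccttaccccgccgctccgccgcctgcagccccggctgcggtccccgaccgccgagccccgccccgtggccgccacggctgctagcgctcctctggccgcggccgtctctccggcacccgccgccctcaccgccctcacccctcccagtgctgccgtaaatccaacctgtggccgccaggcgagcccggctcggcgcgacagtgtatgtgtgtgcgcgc
The Nom1 window held 5 matches when both strands were counted, the runs TTCCGGAA giving 1 match on each strand, the Heatr1 window held 2 and the Gnl3 window 0. None of the 3 windows held CACGTG, the E-box that MYC and related factors bind. The window of Nop14, also above WT in all KO libraries, is not shown and held neither motif.

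Promoter windows were given for 38 of the 44 members by RefSeq. CCGGAA on either strand was in 18 of them (47.4%), against 16.7% of all genes with a window, and the E-box was in 7 (18.4%), against 8.09% of all genes. The windows of the members were richer in G and C, with a median of 58.8% against 52.7% over all windows. Among the 8796 genes with a window that were also tested here, the shares were 32.6% and 12.1%, a comparison chosen after seeing the data. Of the 77 other ribosome biogenesis genes with a window, 61.0% held the ETS core and 20.8% the E-box. Both motifs were thus more frequent in member windows than over all genes or genes tested, and less frequent than in the other ribosome biogenesis genes, and no test was made of this. The median log2 fold change was 0.11 for the 18 members with the ETS core and 0.11 for the 20 without it, and it was 0.22 for the 7 members with an E-box and 0.09 for the 31 without one. A match is a run of letters and not a site of binding.

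Nom1 stood at 27.0, 30.6, 28.8 and 37.7 CPM in KO mice 1 to 4, and at 60.3, 49.2, 60.7 and 52.1 CPM in WT mice 1 to 4. Every KO library was below every WT library. The means were 31.0 ± 4.68 CPM in KO and 55.6 ± 5.81 CPM in WT (SD, n = 4 each) and the log2 fold change was -0.87 (SE 0.199, edgeR adjusted p = 0.0368). These values rest on 176 to 431 reads per library. The published study of these mice is understood to have singled out Nom1 on these same samples, so its direction here is not independent evidence. The log2 fold change lay between -0.96 and -0.82 in all 19 alternative analyses, while the adjusted p by edgeR, DESeq2 or limma voom exceeded 0.05 in 11 of them. It was 0.151 without WT mouse 3, 0.125 without WT mouse 1, 0.0956 without KO mouse 3, 0.0787 without KO mouse 2, 0.0719 without WT mouse 2, 0.0689 without KO mouse 1 and 0.0644 without WT mouse 4.

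**Figure D1:**
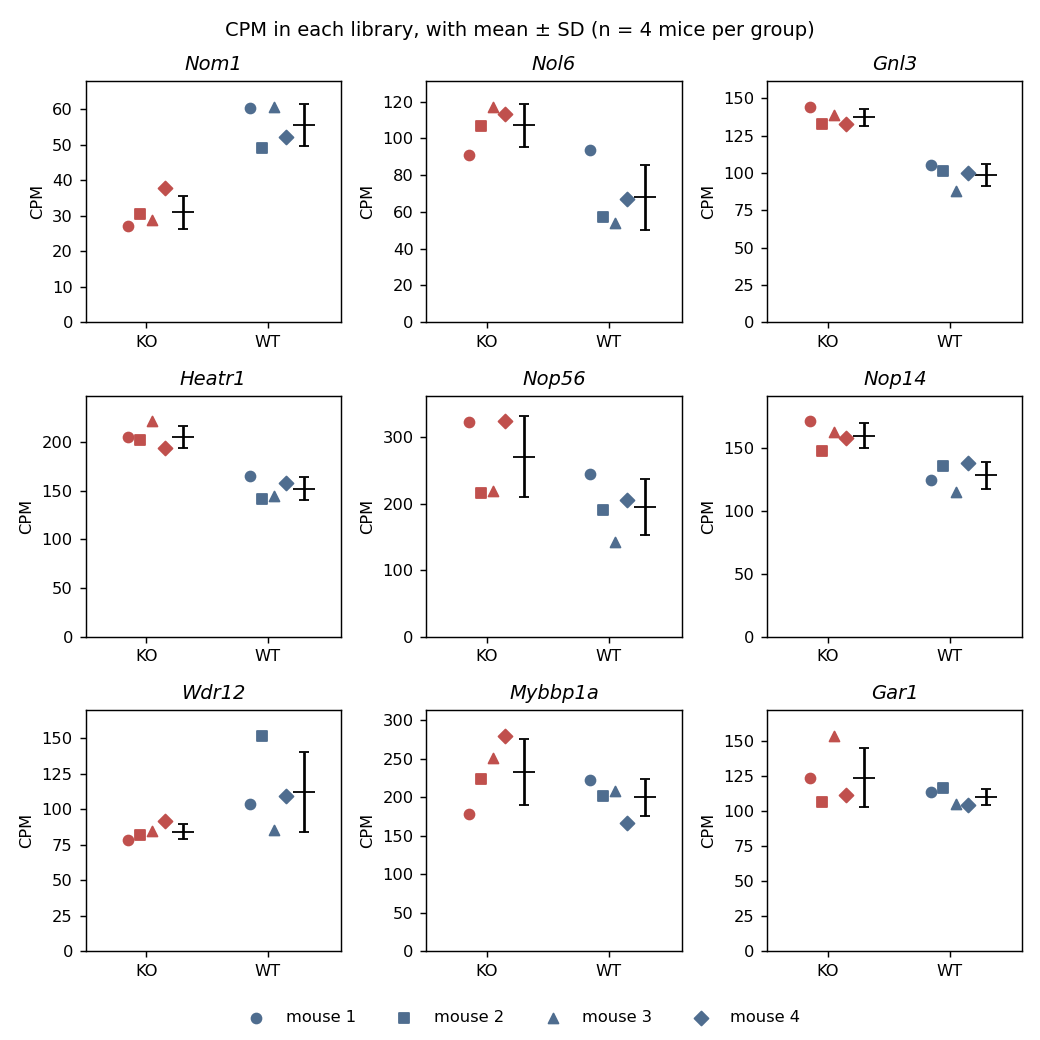
CPM of 9 members in each library, KO on the left and WT on the right of each panel, with the mean and SD of 4 mice beside the points and the mouse number as the marker shape. Nom1 is lower in all 4 KO libraries, while Gnl3, Heatr1 and Nop14 lie above all WT libraries in all 4 without passing the test over all genes.

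Nom1 is counted here with 12 other factors of the small subunit outside the UTP complexes. In this group 4 of 13 (30.8%) had a log2 fold change above 0, against 50.2% of all genes, with a median of -0.07. Nom1 alone passed, 1 of 13, against 0.33% of all genes lower by edgeR. Nop14, a processome scaffold that in yeast binds Noc4 and Emg1, stood at 171, 148, 163 and 158 CPM in KO mice and at 124, 136, 115 and 138 CPM in WT mice. The groups did not overlap. Its log2 fold change was 0.32 (SE 0.134), with an adjusted p of 0.355 by edgeR. The exact two-sided permutation p was 0.0286, the smallest that 4 against 4 libraries can give, and the same value held for Nom1. Every gene whose groups do not overlap gets this value, so it restates the lack of overlap and adds nothing to it. Over all genes tested, KO libraries lay wholly above WT libraries in 2.88% and wholly below in 2.93%, against 3 and 1 of the 44 members.

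The counterparts of its yeast partners overlapped between the groups. Noc4l averaged 22.4 ± 2.96 CPM in KO and 25.5 ± 8.29 CPM in WT, and Emg1, which methylates a pseudouridine of the small subunit rRNA, 15.1 ± 2.02 CPM in KO and 16.9 ± 2.33 CPM in WT (SD, n = 4 each). In the complex of Mphosph10, Imp3 and Imp4, which holds U3 RNA against the pre-rRNA, the log2 fold changes were 0.20 for Mphosph10, -0.07 for Imp3 and 0.28 for Imp4, with edgeR adjusted p of 0.68, 0.957 and 0.625. Bms1, a GTPase, had nearly equal means of 223 ± 10.3 CPM in KO and 223 ± 18.6 CPM in WT, while its partner Rcl1 averaged 51.6 ± 9.75 CPM in KO and 59.6 ± 8.28 CPM in WT. The KO and WT libraries of each of these genes overlapped. Nat10, an rRNA acetyltransferase, ran from 42.9 to 51.6 CPM in KO, against 36.9, 44.1 and 46.1 CPM in 3 WT mice and 83.6 CPM in WT mouse 2. Dimt1, an adenosine dimethyltransferase, ran from 12.1 to 33.5 CPM in KO and from 21.5 to 48.2 CPM in WT, and 31.9% of its annotated exon bases overlap Kif2a on the opposite strand. Since the strand setting of the counting is not given in the sources used here, reads of that overlap may come from either gene. Ltv1 and Rrp12, known in yeast from late assembly and export of the small subunit, had log2 fold changes of -0.18 and 0.04.

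The UTP complexes of the small subunit processome held the member with the largest positive log2 fold change, and 0 of 6 passed by edgeR. Of these 6, 2 were higher without adjustment (33.3%), against 5.76% of all genes. DESeq2 called 2 higher, against 0.679% of all genes, and limma voom 1, against 0.339%. The median log2 fold change was 0.22, and that of all genes tested was 0.00. Nol6, a subunit of UTP-C, stood at 90.9, 107, 117 and 113 CPM in KO mice 1 to 4 and at 93.4, 57.3, 53.9 and 67.0 CPM in WT mice 1 to 4. WT mouse 1 lay above KO mouse 1, and the other 3 WT libraries lay below every KO library. The log2 fold change was 0.64 (SE 0.177), with an adjusted p of 0.106 by edgeR. The adjusted p fell under 0.05 in 4 of the 19 alternatives, at 0.0346 without WT mouse 1, 0.0341 without the filter, 0.0404 by DESeq2 and 0.0496 by limma voom.

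Heatr1, whose yeast counterpart belongs to UTP-A and is needed for pre-rRNA transcription, stood at 205, 202, 221 and 193 CPM in KO mice and at 166, 141, 144 and 158 CPM in WT mice. The groups did not overlap, and the spread within each was small. Its log2 fold change was 0.43 (SE 0.126), with an adjusted p of 0.138 by edgeR and 0.0366 by DESeq2. The 4 other UTP members, Wdr43, Nol11, Wdr75 and Utp15, had log2 fold changes of 0.25, 0.20, 0.14 and -0.08, with edgeR adjusted p between 0.518 and 0.904. Wdr43 was at 273, 289 and 264 CPM in KO mice 2 to 4, above all WT libraries at 203 to 219.6 CPM, but at 181 CPM in KO mouse 1, below them all. Utp15 was nearly flat, at 83.9 to 93.6 CPM in KO and 88.4 to 97.1 CPM in WT.

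**Figure D2:**
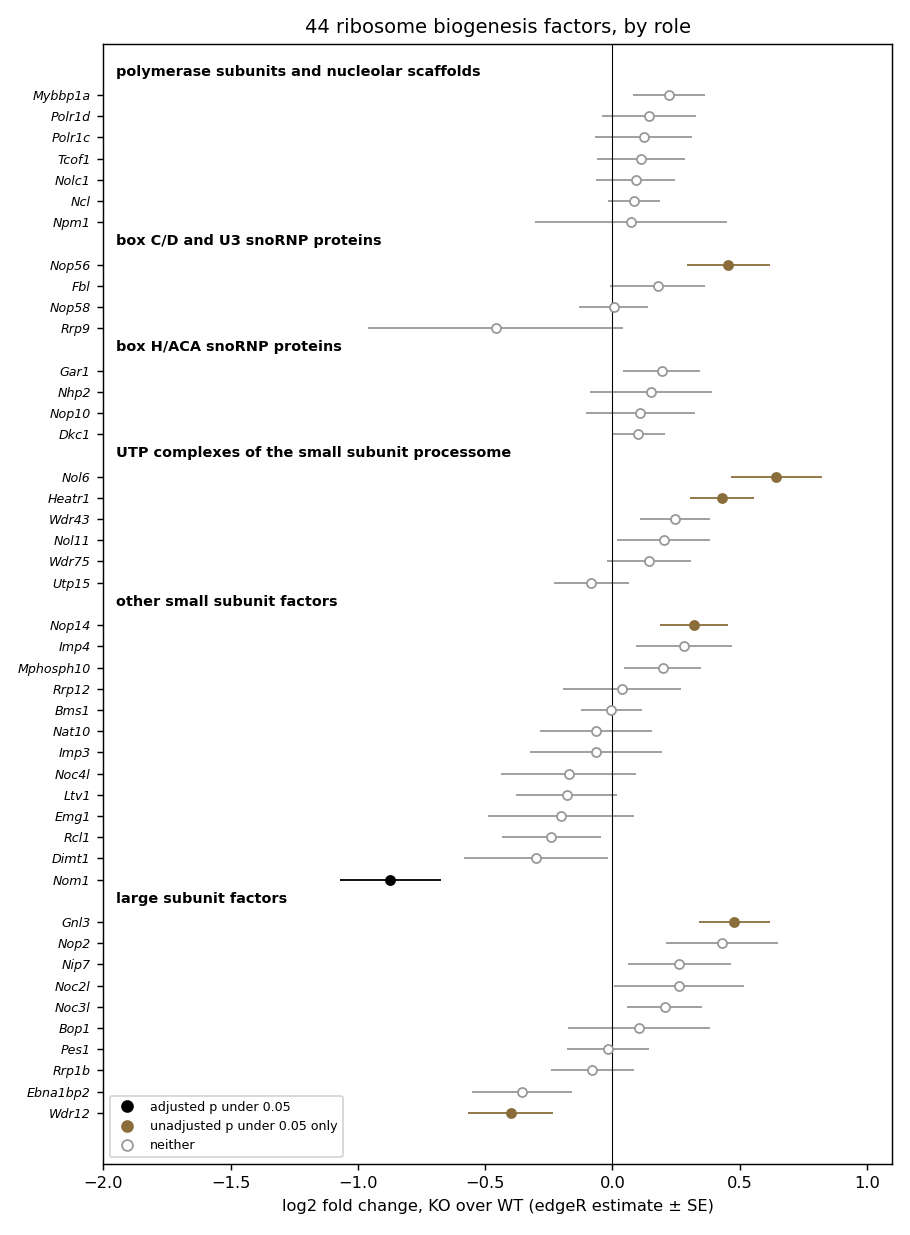
Log2 fold change of each of the 44 members, KO over WT, with its SE, grouped by role on the vertical axis and coloured by the test passed. Nom1 at -0.87 is the 1 black point, and the 6 brown points passed edgeR at an unadjusted p and not at an adjusted one.

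Among large subunit factors 6 of 10 (60%) had a log2 fold change above 0, against 50.2% of all genes. Their median was 0.15, and 0 passed the edgeR test. Without adjustment 1 was higher and 1 lower, each 10%, against 5.76% and 5.44% of all genes. DESeq2 called 1 higher, against 0.679% of all genes. Gnl3, nucleostemin, a nucleolar GTPase known from stem and progenitor cells, stood at 144, 133, 139 and 133 CPM in KO mice and at 105, 102, 87.9 and 99.7 CPM in WT mice. All KO libraries were above all WT libraries. The log2 fold change was 0.48 (SE 0.141), with an adjusted p of 0.138 by edgeR and 0.0259 by DESeq2. The introns of Gnl3 hold snoRNA genes, and 3.85% of its annotated exon bases coincide with them, so a share of its reads may come from snoRNAs.

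Wdr12 had the lowest estimate of the large subunit factors. It stood at 78.6, 82.1, 84.3 and 91.4 CPM in KO mice and at 103, 151, 85.0 and 109 CPM in WT mice, so that WT mouse 3 lay within the KO range. The log2 fold change was -0.40 (SE 0.167), with an adjusted p of 0.356 by edgeR, and it was -0.25 without WT mouse 2 (edgeR adjusted p = 0.721). Wdr12 forms the PeBoW complex with Pes1 and Bop1, which is needed to mature the large subunit rRNA. Pes1 averaged 77.4 ± 7.63 CPM in KO and 78.3 ± 4.69 CPM in WT, and Bop1 22.9 ± 2.66 CPM in KO and 22.2 ± 8.70 CPM in WT (SD, n = 4 each). The 3 partners thus had estimates of -0.40, -0.02 and 0.10 on the log2 scale, none past the test.

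Of the remaining large subunit factors, Nop2, an rRNA cytosine methyltransferase, was at 43.9 to 73.2 CPM in KO and at 27.97 to 52.5 CPM in WT, with a log2 fold change of 0.43 (SE 0.222, edgeR adjusted p = 0.474). Ebna1bp2 was at 46.1 to 75.0 CPM in KO and at 49.2 to 90.3 CPM in WT, with a log2 fold change of -0.35. For both genes the groups overlapped. Noc2l and Noc3l, which escort pre-ribosomes in yeast, had log2 fold changes of 0.26 and 0.21. For Noc2l, 20.9% of exon bases overlap Samd11 on the other strand. Nip7 was at 0.26 and Rrp1b at -0.08.

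Of the 4 box C/D and U3 proteins, 0 passed by edgeR, DESeq2 or limma voom. Without adjustment 1 was higher (25%), against 5.76% of all genes. Nop56 had the highest estimate of the 4. It is a core scaffold of these snoRNPs, together with Nop58 and the methyltransferase fibrillarin, encoded by Fbl. Nop56 stood at 323, 216, 219 and 323 CPM in KO mice and at 244, 189.7, 142 and 206 CPM in WT mice. KO mice 1 and 4 were above every WT library, while KO mice 2 and 3 were below WT mouse 1. The log2 fold change was 0.45 (SE 0.163), with an adjusted p of 0.262 by edgeR. Nop56 also hosts snoRNAs in its introns, and 8.0% of its annotated exon bases coincide with them. Fbl averaged 60.8 ± 7.50 CPM in KO and 54.1 ± 8.48 CPM in WT, and Nop58 659 ± 168 CPM in KO and 655 ± 52.9 CPM in WT (SD, n = 4 each). Rrp9, which binds U3 specifically, had the lowest counts of the list, 11 to 32 reads per library, and its log2 fold change of -0.46 had an SE of 0.501.

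All 4 box H/ACA proteins had estimates above 0, against 50.2% of all genes. Their estimates lay between 0.10 and 0.19 on the log2 scale, and 0 passed. No member of this group had an unadjusted p under 0.05 by edgeR (0 of 4), and DESeq2 and limma voom called 0. Gar1, which had the smallest p of them, stood at 124, 107, 154 and 112 CPM in KO mice and at 114, 117, 106 and 105 CPM in WT mice. KO mice 2 and 4 lay among the WT libraries. Its log2 fold change was 0.19 (edgeR adjusted p = 0.692), and it was 0.06 without KO mouse 3. Dkc1, the pseudouridine synthase dyskerin, averaged 583 ± 35.2 CPM in KO and 544 ± 56.3 CPM in WT, Nhp2 27.0 ± 2.33 CPM in KO and 24.4 ± 4.39 CPM in WT, and Nop10 39.5 ± 7.33 CPM in KO and 36.5 ± 5.83 CPM in WT (SD, n = 4 each).

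The polymerase subunits and nucleolar scaffolds had estimates between 0.07 and 0.22 on the log2 scale, and 0 of 7 passed by edgeR, DESeq2 or limma voom or at an unadjusted p under 0.05. Mybbp1a, a nucleolar protein of pre-rRNA processing that also binds MYB, stood at 179, 223, 251 and 279.6 CPM in KO mice and at 223, 202, 208 and 167 CPM in WT mice. KO mouse 1 lay below 3 of the 4 WT libraries. The log2 fold change of Mybbp1a was 0.22 (edgeR adjusted p = 0.597), and it was 0.13 without KO mouse 4 and 0.14 without WT mouse 4. Polr1c and Polr1d, subunits shared by polymerases I and III, averaged 71.4 ± 13.1 and 55.4 ± 4.89 CPM in KO, against 64.8 ± 14.0 and 49.5 ± 6.05 CPM in WT (SD, n = 4 each). Tcof1, the nucleolar protein treacle, averaged 114 ± 24.6 CPM in KO and 103 ± 15.9 CPM in WT, and Nolc1, a snoRNP chaperone, 164 ± 5.87 CPM in KO and 154 ± 40.3 CPM in WT. Ncl, nucleolin, averaged 4468 ± 878 CPM in KO and 4211 ± 257 CPM in WT. Npm1, nucleophosmin, varied most in absolute terms, at 13227, 6252, 4409.7 and 11325 CPM in KO mice 1 to 4 and at 7796, 8678, 6608 and 10394 CPM in WT mice 1 to 4. The KO range of Npm1 enclosed the whole WT range.

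Per kilobase of the principal transcript, 39 of the 44 members lay above the median of all genes tested, and 9 were in the top 10%. Npm1 was highest, at 5391 CPM per kb in KO and 5125 CPM per kb in WT. Ncl followed at 545 CPM per kb in KO and 513 CPM per kb in WT, and Nop58 at 384 CPM per kb in KO and 382 CPM per kb in WT. Nom1 was among the lowest, at 3.37 CPM per kb in KO and 6.03 CPM per kb in WT, with Rrp9 below it at 2.09 CPM per kb in KO and 2.56 CPM per kb in WT. The principal transcript of Nom1 is 9219 bases long, so its level per length depends on how much of that transcript these cells use. The same limit holds for the other members, such as Wdr12 at 10012 bases and Ncl at 8202 bases. The median coefficient of variation of the members between mice was 16.1% in KO and 15.6% in WT. Over all genes tested it was 22.1% in KO and 22.2% in WT. The members had a median level percentile of 75.4 per length, and their variation was not compared with that of genes of like level.

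**Figure D3:**
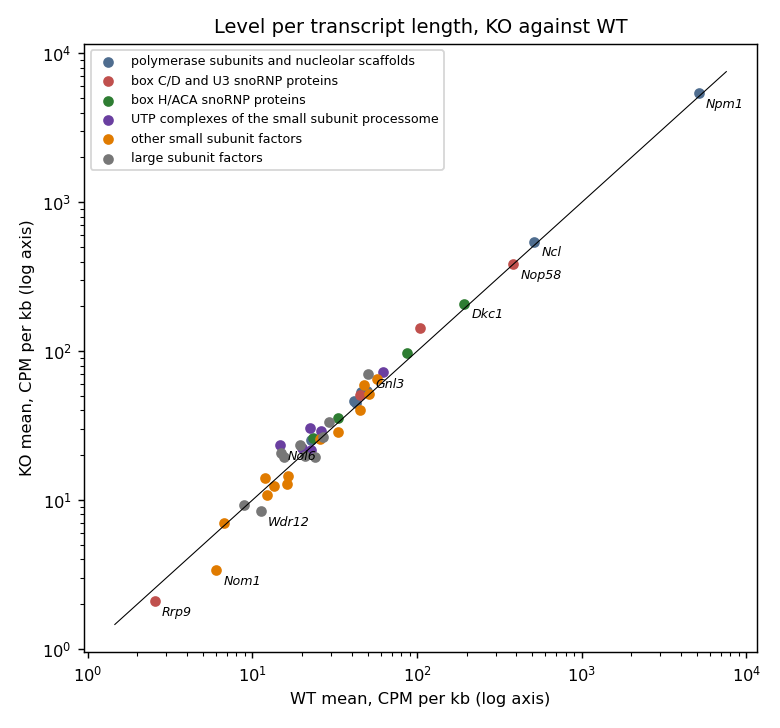
Mean level per kilobase of principal transcript, KO on the vertical and WT on the horizontal log axis, 1 point per member and coloured by role, with the diagonal marking equal levels. Members span more than 3 orders of magnitude between Rrp9 and Npm1, and Nom1 lies farthest below the diagonal.

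Taken over all members, the libraries of the groups overlapped. The mean log2 CPM, centred for each gene over the 8 libraries and averaged over the 44 members, was 0.05, -0.02, -0.02 and 0.13 in KO mice 1 to 4 and 0.12, -0.02, -0.18 and -0.07 in WT mice 1 to 4. WT mouse 1 had a level close to KO mouse 4, and WT mouse 2 a level close to KO mice 2 and 3. Among the 4 WT mice, mouse 1 was highest for 25 members and mouse 3 lowest for 18. The 6 UTP members alone gave -0.01, 0.17, 0.21 and 0.15 in KO mice and -0.05, -0.13, -0.18 and -0.16 in WT mice, which did not overlap, the nearest being KO mouse 1 and WT mouse 1. The libraries overlapped in the other 5 role groups. Other UTP subunits, such as Utp6 and Utp18, are not among these 6 but on the list of other ribosome biogenesis genes below. The 41 small subunit genes of that list had a median log2 fold change of 0.05, and 0 passed edgeR. Of the 41, 23 were above 0 (56.1%), against 50.2% of all genes. The 13 other small subunit factors gave -0.03, -0.03, -0.08 and -0.04 in KO mice and 0.20, 0.13, -0.15 and 0.00 in WT mice.

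Genes of the cell cycle and the MYC network were set beside these levels. The mean of 30 S phase genes was 0.20, -0.06, 0.13 and 0.09 in KO mice and 0.09, -0.26, -0.21 and 0.02 in WT mice. The mean of 24 genes of G2 and mitosis was 0.42, 0.05, -0.04 and 0.13 in KO mice and -0.18, -0.22, -0.28 and 0.12 in WT mice. Of the cell cycle genes 0 passed by edgeR. Without adjustment, 5 S phase genes (16.7%) and 7 of G2 and mitosis (29.2%) were higher, against 5.76% of all genes. DESeq2 called 1 gene of G2 and mitosis higher, against 0.679% of all genes. A log2 fold change above 0 was seen in 80% of the S phase genes and 87.5% of those of G2 and mitosis, against 50.2% of all genes. Both cell cycle means were on average higher in KO, and the order of the libraries matched that of the members only in part. WT mouse 1, the highest WT library for the members, was also the highest WT library for S phase, at 0.09. For G2 and mitosis WT mouse 1 was at -0.18. WT mouse 3, the lowest library for the members, was also the lowest for G2 and mitosis, at -0.28, while the lowest S phase library was WT mouse 2. Rn45s, the rRNA precursor, took between 2.37% and 3.93% of KO counts and between 2.38% and 4.85% of WT counts. The part of the cell cycle, or of amplification and rRNA content, in the levels of the members was not tested. Myc, which drives many ribosome biogenesis genes, averaged 583 ± 69.0 CPM in KO and 531 ± 81.3 CPM in WT (SD, n = 4 each, edgeR adjusted p = 0.746). Of 9 MYC network genes tested 0 passed by edgeR or DESeq2 or limma voom. Without adjustment 1, Max, was higher and 1, Mycn, lower, each 11.1%, against 5.76% and 5.44% of all genes.

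**Figure D4:**
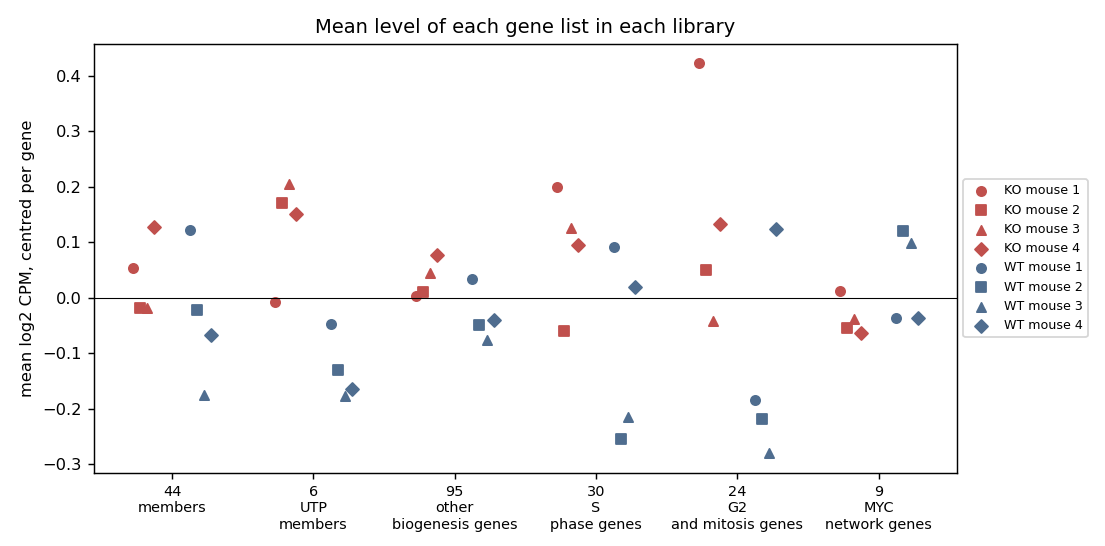
Mean log2 CPM centred per gene, for 6 gene lists, in each KO (red) and WT (blue) library, with marker shape giving the mouse number. The 44 members overlap between the groups, with WT mouse 1 at 0.12 near KO mouse 4 at 0.13.

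The rest of the pathway was covered by 96 other ribosome biogenesis genes, of which 95 were counted and tested. None passed edgeR over all genes (0 of 95). Without adjustment, 5 were higher (5.26%) and 2 lower (2.11%), both under the shares of all genes. DESeq2 called 1 of the 95 higher, against 0.679% of all genes. KO libraries lay wholly above WT libraries for 4 of the 95 and wholly below for 1, against 2.88% and 2.93% of all genes. A log2 fold change above 0 was seen in 61 of the 95, or 64.2%, against 50.2% of all genes, with a median of 0.06. Wdr46, a processome protein, had the smallest p. It stood at 98.6, 102, 125 and 112 CPM in KO mice and at 83.9, 80.3, 63.1 and 64.9 CPM in WT mice, with no overlap, a log2 fold change of 0.60 (SE 0.162) and adjusted p of 0.0994 by edgeR and 0.0259 by DESeq2. Next came Utp20, a large processome protein, at 186 to 215 CPM in KO and 119 to 178 CPM in WT, with a log2 fold change of 0.38 (edgeR adjusted p = 0.269). The late small subunit kinases Riok1 and Riok3 were at -0.45 and -0.36, and Mdn1, a giant ATPase of the large subunit, at 0.28, with edgeR adjusted p of 0.369, 0.371 and 0.435.

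**Figure D5:**
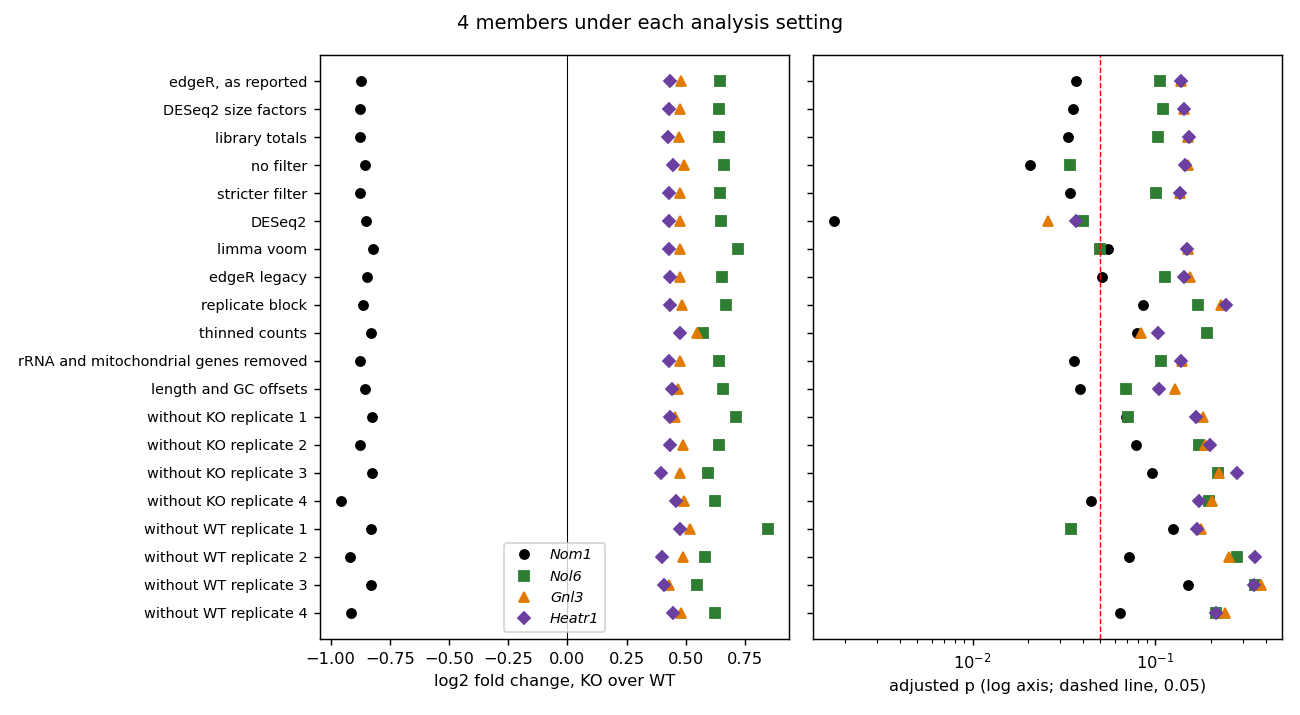
Log2 fold change (left) and adjusted p on a log axis (right) of Nom1, Nol6, Gnl3 and Heatr1 under the reported edgeR analysis and 19 alternatives, 1 row each. The 4 estimates stay on their side of 0 throughout, while Nom1 crosses the dashed line at 0.05 in 11 alternatives.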

How the data were processed

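RNA from sorted haematopoietic stem cells of 4 KO and 4 WT mice was amplified with a Nugen Ovation kit, per the labels. The authors mapped reads to mm10, per the submitters' processing notes, with STAR (2.4.0d-2) and counted them with htseq-count (0.6.1galaxy1), per the labels' protocols. The deposited values are raw counts per gene symbol. The annotation is not given in the sources used here, and copies made in amplification cannot be told from molecules.

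Genes were kept by filterByExpr (minimum count 10, minimum total 15), scaled by TMM and tested by edgeR 4.0.16 (R 4.3.3), quasi-likelihood with robust dispersion, genotype only, two-sided. P-values were adjusted by Benjamini-Hochberg over all 11498 genes. SE is the log2 fold change divided by the square root of F. CPM uses TMM-scaled totals, and centred levels a prior count of 2. Coordinates, lengths and overlaps are from GENCODE M21 (mm10), and promoters from RefSeq. Alternatives were DESeq2 1.42.0, limma 3.58.1 voom and those of the closing section. Libraries of a group differed by more than sampling noise. The labels do not say that mouse numbers pair the groups, and the reported test did not pair them.

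The members and lists were chosen with earlier results of these data known. Values in every library are given for Nom1, for members with an unadjusted p under 0.05 or no overlap, and otherwise for the smallest p of a role group; those of Npm1 were added after its values were seen; from the other list, the 5 smallest p are named.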

Additional observations from a re-analysis of the deposited data

How the results depend on the processing

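Nom1 kept its direction in all 19 alternatives. Its log2 fold change and adjusted p were -0.82 and 0.0552 by limma voom, -0.85 and 0.051 by edgeR's legacy method, -0.86 and 0.0853 with the mouse number as a replicate block, and -0.83 and 0.0797 with counts thinned to 3594315 per library. Leaving out 1 library at a time gave -0.96 to -0.83, with edgeR adjusted p of 0.0446 to 0.151. The cause was not tested, except that fewer samples or reads entered where libraries were left out or counts thinned. The count of lower members was therefore 0 by limma voom, by the legacy method, with the replicate block and with thinned counts, and 0 to 1 when a library was left out. The count of higher members was 1 without the filter, 3 by DESeq2, 1 by limma voom and 0 to 1 when a library was left out. Of the other ribosome biogenesis genes, DESeq2 called 1 higher. The median log2 fold change of the members was 0.06 to 0.14 across the 19 alternatives, the lowest being without WT mouse 3. DESeq2 size factors, library totals, a filter of 5 CPM in 4 libraries, removal of Rn45s and mitochondrial genes, and length and GC offsets changed none of these calls. The labels do not say that mouse numbers pair the groups, and the same-numbered deviations correlated at -0.09 to -0.01. A 150-base window gave motif shares of 44.7% and 15.8%. Depth limits Rrp9 most, at 11 reads in its shallowest library.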
